A study of Mus musculus with 12 samples.

Results

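The genes described here are 10 early response transcription factors, namely Egr1, Egr2, Egr3, Nr4a1, Nr4a2, Nr4a3, Fos, Fosl2, Jun and Junb. They were taken by name, each at its probe set with a single gene symbol and the highest mean, from a table of 19938 genes. All 10 were measured, and each had 1 such probe set. Their level was read on 12 arrays in 3 groups of 4. The RNA came from CD4+ T cells of C57Bl/6 donors, transferred into B6D2F1 hosts and sorted on day 2 (48 hr) from spleen and lymph node after at least 2 divisions, as read from dilution of the dye CFSE. The TCDD hosts received 15 µg/kg of this chlorinated dioxin on day 0. The Cl-BBQ hosts received 2 mg/kg of a second ligand of the aryl hydrocarbon receptor (AhR) on days 0 and 1, and the vehicle hosts received vehicle on days 0 and 1. Mice were 10 to 12 weeks old and all groups carried the same graft-versus-host response, so no array shows unstimulated cells. The dose was given to the host, and schedules differed between TCDD and the other groups.

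Early response genes are switched on within minutes of a stimulus without new protein synthesis, and in T cells the stimulus is mainly the T cell receptor. Calcium, calcineurin and the NFAT factors, together with the MAP kinase ERK, drive the zinc finger factors Egr1, Egr2 and Egr3 and the orphan nuclear receptors Nr4a1 (Nur77), Nr4a2 (Nurr1) and Nr4a3 (Nor1). Fos and Jun family proteins pair through leucine zippers to form AP-1, which binds with NFAT at cytokine genes. Egr2, Egr3 and the Nr4a receptors are also known for restraining activated T cells. In bulk samples a lower level in every cell and fewer cells with the transcript cannot be told apart.

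The promoter stretches below belong to the factors that varied most between arrays among those whose promoter was searched. RefSeq promoters (GRCm38.p6, 250 bases before to 50 after the start of transcription) were searched for 8 of the 10 genes. Egr1, which also varied widely between arrays, and Egr3 were not covered. Shown are the 130 bases before the start, 5′ to 3′ on the plus strand of the genome, where all 4 genes lie. Capitals mark matches, on either strand, to the CArG box bound by serum response factor, to the half-site TGACG of the cyclic AMP response element, to the EGR site GCGNGGGCG and to the AhR core GCGTG; the half-site was added after the promoters had been read.
Egr2: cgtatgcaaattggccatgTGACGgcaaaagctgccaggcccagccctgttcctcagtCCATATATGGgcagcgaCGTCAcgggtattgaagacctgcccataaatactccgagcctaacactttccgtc
Nr4a1: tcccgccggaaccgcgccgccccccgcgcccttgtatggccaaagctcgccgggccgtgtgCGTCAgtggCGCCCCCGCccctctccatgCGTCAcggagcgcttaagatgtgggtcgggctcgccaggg
Nr4a3: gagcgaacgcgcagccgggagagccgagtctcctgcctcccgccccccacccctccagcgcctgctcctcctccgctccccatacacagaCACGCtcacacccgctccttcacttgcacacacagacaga
Fos: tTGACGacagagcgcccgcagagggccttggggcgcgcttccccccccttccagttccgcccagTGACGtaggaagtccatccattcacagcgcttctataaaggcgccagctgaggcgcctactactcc

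These stretches lie at chr10:67537739-67537868 for Egr2, which has several listed starts, chr15:101266716-101266845 for Nr4a1, chr4:48045175-48045304 for Nr4a3 and chr12:85473760-85473889 for Fos. Over the whole windows, TGACG was found in 6 of the 8 genes (Egr2, Fos, Junb, Nr4a1, Nr4a2 and Nr4a3) and in 20.8% of all 32851 promoters of the same length. The CArG box was found in Egr2 and in 1.63% of all promoters. Egr1 and Egr3 were not searched, so none of these counts says whether they carry a site. The EGR site was found in Fosl2, Nr4a1 and Nr4a2, and in 5.55% of all promoters. GCGTG was found in Fos, Junb, Nr4a1, Nr4a2 and Nr4a3, and in 32.4% of all promoters. The full element TGACGTCA (1.79% of all promoters), the AP-1 site TGANTCA (7.81%) and the NR4A site AAAGGTCA (1.51%) had no match in these 8 genes. A factor was counted if any of its listed promoters had a match, whereas the shares count every promoter singly. A factor with several listed starts, such as Egr2, therefore had more windows to match. A match is a run of letters and not evidence of binding.

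The sorted cells carried CD4 T cell transcripts: the 9 measured markers ran from a mean log2 intensity of 10.22 (Zap70) to 13.02 (Cd3g). Array medians ran from 7.11 to 7.24, and arrays correlated at 0.988 to 0.995 across probe sets. The AhR target genes Cyp1a1, Cyp1b1, Ahrr, Tiparp and Nqo1 all rose with TCDD. On the scale set by these genes, with vehicle at 0 and TCDD at 1, Cl-BBQ arrays 1, 2 and 4 lay at 0.369 to 0.545 and Cl-BBQ array 3 at 0.031, so results with Cl-BBQ were also computed without array 3. Levels are log2 intensities, averages are given with the SD over 4 arrays, and arrays are named by group and replicate number. Differences are log2, tested with limma over all genes with Benjamini-Hochberg adjustment, and a gene was called at an adjusted p under 0.05. Both ligands were set against the same vehicle arrays, so these comparisons are not independent.

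No early response factor was called in any comparison. TCDD against vehicle called 0 of the 10, where 1.24% of all genes were called. Cl-BBQ against vehicle also called 0 of the 10, against 0.196% of all genes, and 0 without Cl-BBQ array 3. TCDD against Cl-BBQ called 0 of the 10, against 0.015% of all genes, that is 3 genes; with the replicate number as a block that count was 5, and still 0 of the factors. At an unadjusted p under 0.05, the TCDD comparison had 1 factor (Nr4a3), where 8.69% of all genes reached that level, the Cl-BBQ comparison had 0, where 7.91% did, and the comparison of the ligands had 1 (Fosl2), where 2.99% did. By direction, TCDD called 0.873% of all genes higher and 0.366% lower than vehicle, Cl-BBQ called 0.145% higher and 0.0502% lower than vehicle, and TCDD called 0.015% higher and 0% lower than Cl-BBQ. Arrays of the groups did not overlap for 0 factors in either comparison with vehicle, where 5.8% of all genes with TCDD and 3.85% with Cl-BBQ had no overlap.

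The intervals bound how large a change could have been missed. With TCDD the 10 differences ran from -0.48 to 0.08 with a median of -0.07, where the median of all genes was 0.00. The 95% intervals reached down to -0.87, a level 1.82-fold lower than vehicle, and up to 0.36, a level 1.29-fold higher. With Cl-BBQ the differences ran from -0.29 to 0.10 with a median of -0.08, where all genes had 0.01, and the intervals spanned 1.60-fold lower to 1.30-fold higher. Between the ligands they ran from -0.19 to 0.17, with intervals from -0.58 to 0.38. Mean levels were below vehicle for 8 of 10 factors with TCDD and for 8 of 10 with Cl-BBQ, which is a count of signs of uncalled differences.

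**Figure D1:**
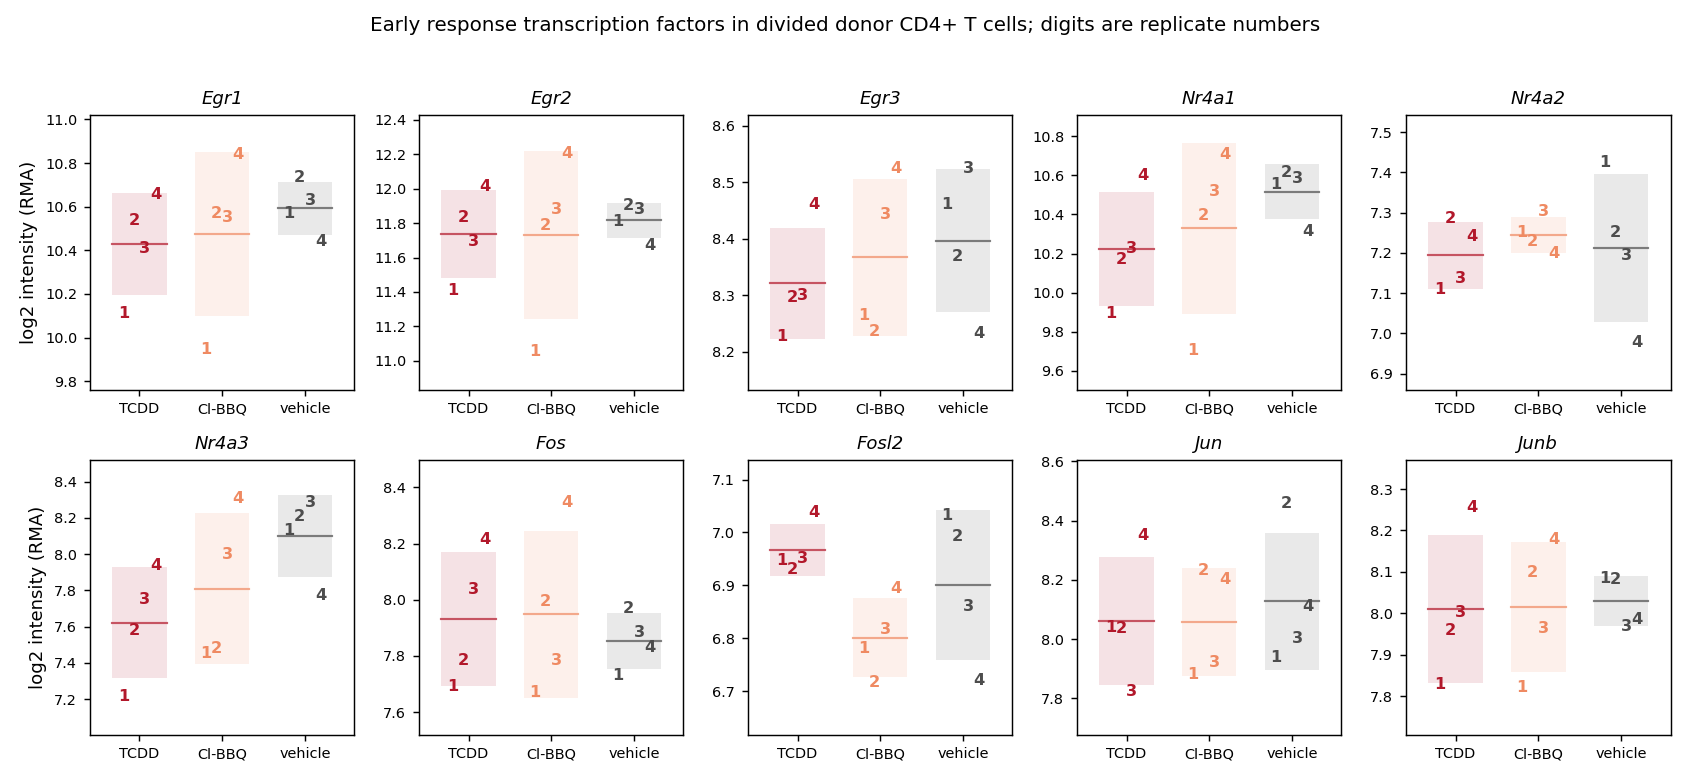
Level of each of the 10 factors on every array. The y axis is log2 intensity on a separate scale per gene, digits are replicate numbers, lines are group means and shaded boxes are ± 1 SD (n = 4). In Egr1, Egr2 and Nr4a1 the arrays numbered 1 lie at the bottom and those numbered 4 at the top of both ligand groups, while vehicle array 4 lies at the bottom of its group.

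Among the nuclear receptors, Nr4a3 had the widest separation from vehicle. Its log2 intensity was 7.22, 7.58, 7.75 and 7.94 in TCDD arrays 1 to 4, 7.45, 7.48, 8.0 and 8.31 in Cl-BBQ arrays 1 to 4, and 8.13, 8.21, 8.29 and 7.77 in vehicle arrays 1 to 4. Of the TCDD arrays, 3 lay below every vehicle array, and TCDD array 4 lay above vehicle array 4, so the groups overlapped. Nr4a3 averaged 7.62 ± 0.31 with TCDD, 7.81 ± 0.42 with Cl-BBQ and 8.10 ± 0.23 with vehicle (SD, n = 4 each). The difference was -0.48 for TCDD minus vehicle (SE 0.18, 95% interval -0.87 to -0.09; limma, unadjusted p = 0.019, adjusted p = 0.404). For Cl-BBQ minus vehicle it was -0.29 (interval -0.68 to 0.10; limma adjusted p = 0.736) and for TCDD minus Cl-BBQ -0.19 (interval -0.58 to 0.20; limma adjusted p = 0.9999). The TCDD value kept its sign under every alternative tried, from -0.59 without vehicle array 4 to -0.34 without TCDD array 1.

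Nr4a1, a rapid readout of T cell receptor signal strength, had the same order of group means at smaller differences. Its level was 9.90, 10.17, 10.23 and 10.60 in TCDD arrays 1 to 4, 9.70, 10.39, 10.52 and 10.71 in Cl-BBQ arrays 1 to 4, and 10.55, 10.62, 10.59 and 10.31 in vehicle arrays 1 to 4. As for Nr4a3, 3 TCDD arrays lay below every vehicle array and array 4 lay within the vehicle range. The difference was -0.29 for TCDD minus vehicle (interval -0.67 to 0.08; limma adjusted p = 0.714), -0.19 for Cl-BBQ minus vehicle (interval -0.56 to 0.18; limma adjusted p = 0.830) and -0.11 for TCDD minus Cl-BBQ (interval -0.48 to 0.26). Without Cl-BBQ array 1 the Cl-BBQ value was 0.02. Nr4a2 was flat across groups, at 7.19 ± 0.08 with TCDD, 7.24 ± 0.04 with Cl-BBQ and 7.21 ± 0.19 with vehicle, and its intervals lay within -0.23 and 0.21 in all 3 comparisons. Its vehicle arrays spanned 6.98 to 7.43 and held every TCDD and Cl-BBQ value. Nr4a2 was dim, with a mean of 7.22 over all arrays, where array medians ran from 7.11 to 7.24. A flat signal at this level may say little about the gene.

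The EGR factors are zinc finger proteins of the same family that bind GC-rich sites and recruit the corepressors Nab1 and Nab2. Egr2, which restrains effector T cell responses, was at 11.41, 11.83, 11.69 and 12.01 in TCDD arrays 1 to 4, at 11.05, 11.78, 11.88 and 12.21 in Cl-BBQ arrays 1 to 4, and at 11.81, 11.90, 11.88 and 11.67 in vehicle arrays 1 to 4. Both ligand groups reached further down and further up than vehicle, whose 4 arrays lay within them. The group means differed little: 11.74 ± 0.26 with TCDD, 11.73 ± 0.49 with Cl-BBQ and 11.82 ± 0.10 with vehicle. The differences were -0.08 for TCDD minus vehicle (interval -0.45 to 0.29), -0.08 for Cl-BBQ minus vehicle (interval -0.46 to 0.29) and 0.01 for TCDD minus Cl-BBQ (interval -0.37 to 0.38), with limma adjusted p of at least 0.935. The Cl-BBQ value changed its sign, to 0.14, without Cl-BBQ array 1.

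Egr1 followed the same arrays. It was at 10.11, 10.54, 10.41 and 10.65 in TCDD arrays 1 to 4, at 9.94, 10.57, 10.55 and 10.84 in Cl-BBQ arrays 1 to 4, and at 10.57, 10.73, 10.63 and 10.44 in vehicle arrays 1 to 4. Array 1 was the lowest and array 4 the highest in both ligand groups, and the 3 groups overlapped. The difference was -0.16 for TCDD minus vehicle (interval -0.48 to 0.15; limma adjusted p = 0.858), -0.12 for Cl-BBQ minus vehicle (interval -0.44 to 0.20) and -0.05 for TCDD minus Cl-BBQ (interval -0.36 to 0.27). Egr3, a partner of Egr2 in restraining T cells, varied less, from 8.23 to 8.46 with TCDD, 8.24 to 8.52 with Cl-BBQ and 8.23 to 8.52 with vehicle. Its differences were -0.08, -0.03 and -0.05 in the same order of comparisons, and its intervals lay within -0.26 and 0.16.

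Of the AP-1 subunits, Fosl2 (Fra-2) was the only factor whose arrays did not overlap between a pair of groups. It was at 6.95, 6.93, 6.95 and 7.04 in TCDD arrays 1 to 4, at 6.78, 6.72, 6.82 and 6.89 in Cl-BBQ arrays 1 to 4, and at 7.03, 6.99, 6.86 and 6.72 in vehicle arrays 1 to 4. All 4 TCDD arrays lay above all 4 Cl-BBQ arrays, a separation that 2.04% of all genes had in this comparison, while vehicle arrays were spread over both ranges. Fosl2 was dim, with a mean of 6.89 over all arrays, below every array median (7.11 to 7.24). Whether its signal lay above background was not tested. The difference was 0.17 for TCDD minus Cl-BBQ, a level 1.12-fold higher with TCDD (SE 0.07, interval 0.01 to 0.32; limma, unadjusted p = 0.036, adjusted p = 0.9999). It kept its sign under every alternative, from 0.14 to 0.20, and was not called in any. Against vehicle, Fosl2 differed by 0.07 with TCDD (interval -0.09 to 0.22) and by -0.10 with Cl-BBQ (interval -0.25 to 0.05).

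Fos, the subunit that cannot pair with itself and needs a Jun partner, was at 7.69, 7.78, 8.04 and 8.22 in TCDD arrays 1 to 4, at 7.67, 7.99, 7.79 and 8.35 in Cl-BBQ arrays 1 to 4, and at 7.73, 7.97, 7.88 and 7.83 in vehicle arrays 1 to 4. Vehicle arrays lay close together and both ligand groups extended past them at either end. Fos differed from vehicle by 0.08 with TCDD (interval -0.20 to 0.36) and by 0.10 with Cl-BBQ (interval -0.19 to 0.38), and TCDD differed from Cl-BBQ by -0.02. Jun, the main partner of Fos, averaged 8.06 ± 0.22 with TCDD, 8.06 ± 0.18 with Cl-BBQ and 8.13 ± 0.23 with vehicle, and its highest value, 8.46, was in vehicle array 2. Junb, which is a weaker activator than Jun and often opposes it, averaged 8.01 ± 0.18 with TCDD, 8.02 ± 0.16 with Cl-BBQ and 8.03 ± 0.06 with vehicle. The intervals of Jun lay within -0.34 and 0.27 and those of Junb within -0.22 and 0.20 in all 3 comparisons.

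**Figure D2:**
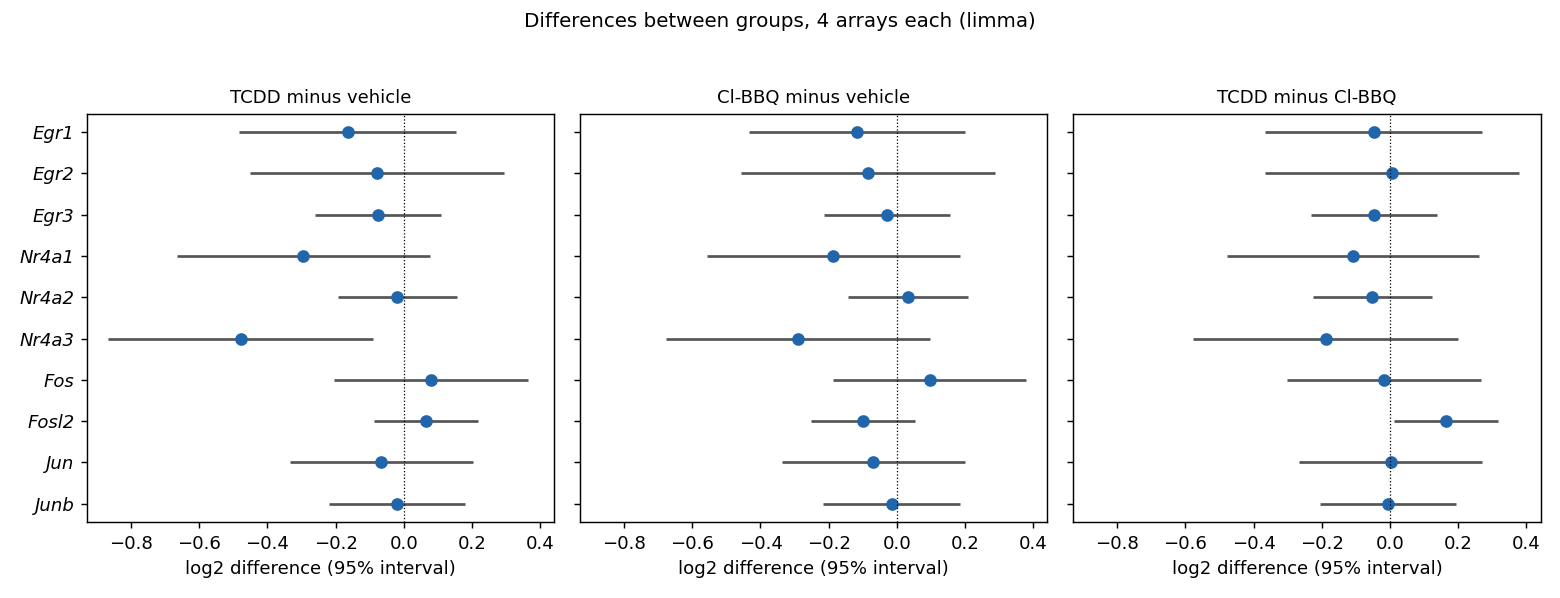
Log2 difference of each factor in the 3 comparisons. Points are differences of group means (n = 4 arrays each) and lines are 95% intervals from limma, not corrected for the number of genes. The interval lies wholly below 0 for Nr4a3 in TCDD minus vehicle and wholly above 0 for Fosl2 in TCDD minus Cl-BBQ, and covers 0 for the other factors.

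Ordered by group mean, neighbouring means lay within 1 pooled SD of each other for 9 of the 10 factors. The exception was Fosl2, whose vehicle and Cl-BBQ means lay 0.0997 apart with a pooled SD of 0.096. For Nr4a3 the highest and lowest means lay 0.48 apart, with a pooled SD of 0.33. The order was vehicle, Cl-BBQ, TCDD from high to low for Egr1, Egr3, Nr4a1, Nr4a3 and Junb, and TCDD, vehicle, Cl-BBQ for Fosl2. Egr2 and Jun had vehicle, TCDD, Cl-BBQ, Nr4a2 had Cl-BBQ, vehicle, TCDD, and Fos had Cl-BBQ, TCDD, vehicle.

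The larger variation was between arrays of the same group. Pooled over the 3 groups, the SD within groups was 0.32 for Egr2, 0.33 for Nr4a3, 0.31 for Nr4a1 and 0.27 for Egr1. Among the 1000 genes nearest to each in mean level, 99.7%, 99.1%, 98.4% and 98.0% had a smaller SD. Fos (SD 0.23) exceeded 94.2% of its neighbours in level and Jun (SD 0.21) exceeded 91.4%. Junb, Nr4a2, Egr3 and Fosl2 lay in the ordinary range, above 66.2%, 65.4%, 43.7% and 38.4% of theirs.

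This variation was shared among the factors. As deviations from the group mean, all 10 factors were below it in TCDD array 1 and all 10 above it in TCDD array 4. In the Cl-BBQ group 9 of 10 were below it in array 1 and 9 of 10 above it in array 4, with Nr4a2 as the exception both times. In the vehicle group all 10 were below it in array 4, and 9 of 10 above it in array 2. The mean deviation of the 10 was -0.20, -0.01, -0.02 and 0.23 in TCDD arrays 1 to 4, -0.30, -0.01, 0.04 and 0.26 in Cl-BBQ arrays 1 to 4, and 0.02, 0.10, 0.03 and -0.15 in vehicle arrays 1 to 4. The largest single deviations were those of Egr2 (-0.68), Nr4a1 (-0.63) and Egr1 (-0.53) in Cl-BBQ array 1.

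**Figure D3:**
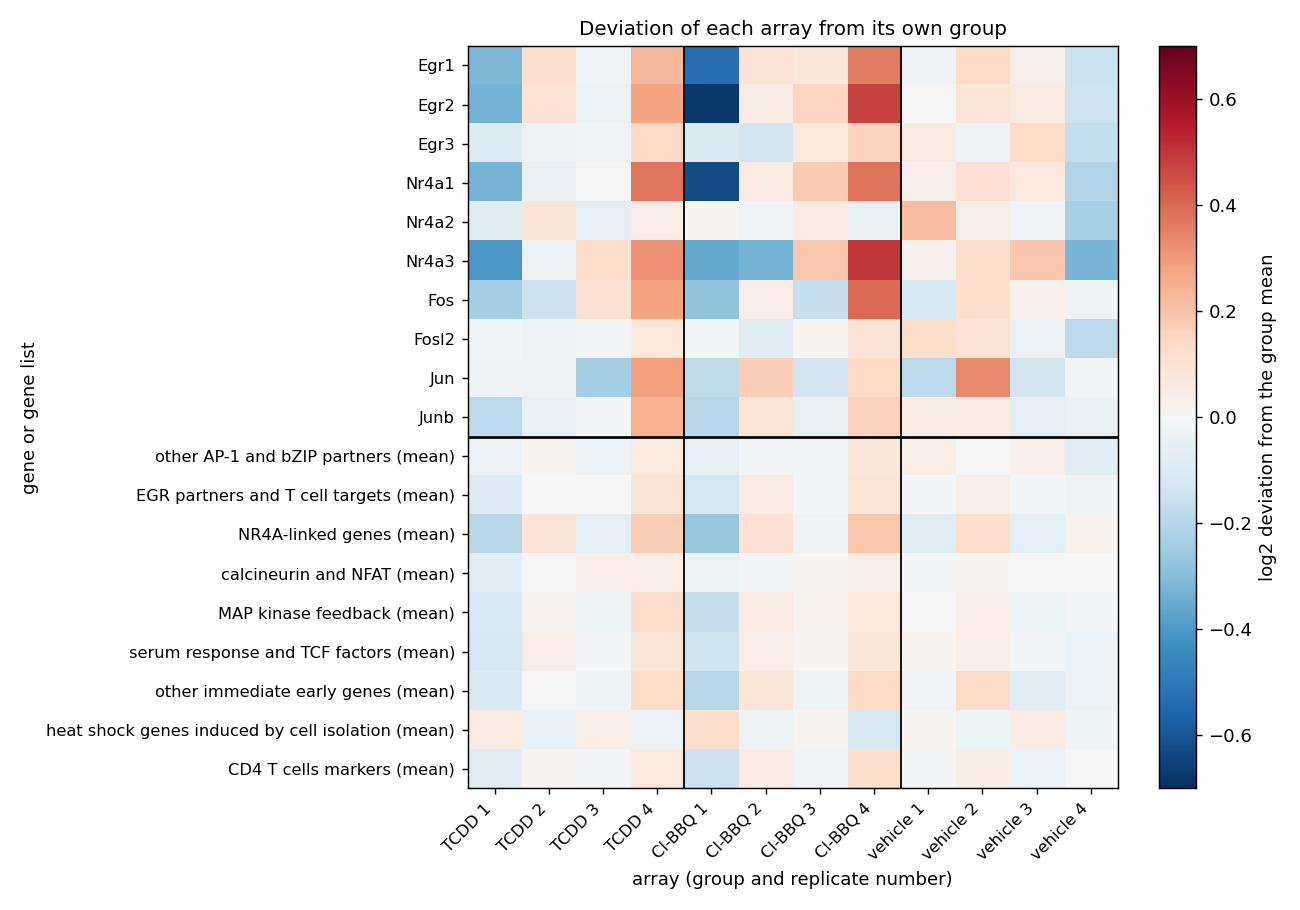
Deviation of each array (columns) from the mean of its own group, in log2 units, for the 10 factors (above the line) and as the mean over the genes of 9 other lists (below it). Blue is below and red above the group mean. TCDD array 1, Cl-BBQ array 1 and vehicle array 4 are low in most factors, and TCDD array 4 and Cl-BBQ array 4 are high. The mean of the heat shock genes leans the other way in these ligand arrays but not in vehicle array 4.

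The numbers are not said to mark a shared day, litter or batch. Over all genes, however, the deviations of same-numbered TCDD and Cl-BBQ arrays correlated at 0.606, 0.113, 0.157 and 0.365 for numbers 1 to 4, all over 0.1. For TCDD and vehicle arrays these correlations were -0.07, 0.14, 0.04 and 0.182, and for Cl-BBQ and vehicle arrays -0.134, 0.087, -0.009 and -0.036. Of the 10 factors, TCDD and Cl-BBQ arrays of the same number had 9, 5, 4 and 9 on the same side of their group means for numbers 1 to 4. For the factors the likeness was thus seen in numbers 1 and 4 only. TCDD and vehicle arrays had 4, 4, 7 and 0 on the same side, and Cl-BBQ and vehicle arrays had 5, 7, 7 and 1. No batch information was available to set beside this.

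Across the 12 arrays the factors were ranked by how closely each followed the mean of the other 9, in deviations from the group means. These correlations are descriptions over arrays that share the same groups and processing. Pearson r was 0.958 for Nr4a1 (Spearman rho 0.958), 0.940 for Egr1 (rho 0.818) and 0.930 for Egr2 (rho 0.874). It was 0.871 for Junb, 0.835 for Nr4a3, 0.797 for Fos and 0.748 for Egr3, and lower for Fosl2 (0.550), Jun (0.462) and Nr4a2 (0.246). Without Cl-BBQ arrays 1 and 4, the arrays farthest from the middle, r was 0.947 for Nr4a1, 0.893 for Egr1, 0.909 for Egr2 and 0.624 for Fos. The order at the lower end rested on these arrays: without them r was 0.499 for Nr4a2 and 0.315 for Jun. With each array left out in turn, Nr4a2 ranged from 0.058 to 0.418 and Jun from 0.295 to 0.526. Of the 45 pairs of factors, 43 had r above 0, with a median of 0.638.

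The closest pairs crossed family lines as well as following them. The closest of all was Egr1 and Egr2 (r = 0.987), and both followed the nuclear receptor Nr4a1 (r = 0.959 and 0.971) more closely than their own relative Egr3 (r = 0.642 and 0.690). Egr3 was closest to Nr4a3 (r = 0.914). Fos and Junb went together (r = 0.861), whereas Fos and Jun had r = 0.6. Nr4a2 stood apart from Nr4a1 (r = 0.259) and Nr4a3 (r = 0.323), and its closest factor was Fosl2 (r = 0.725). The Spearman rho of Nr4a2 and Fosl2 was lower, 0.434, and both genes were dim. In sets of 12 arrays such values are imprecise, and their differences were not tested.

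**Figure D4:**
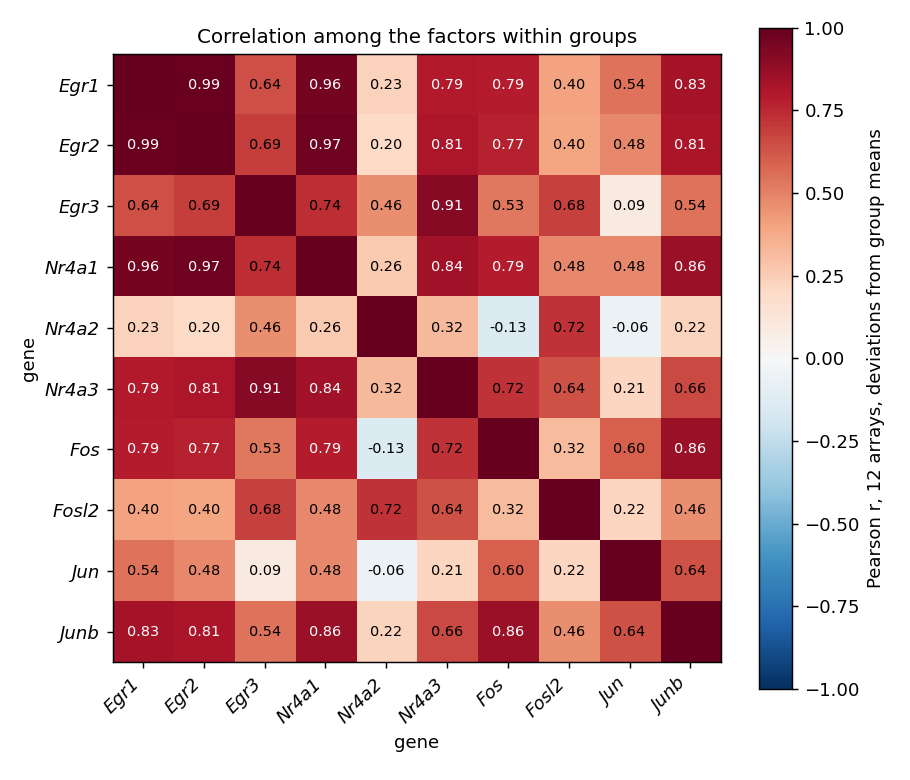
Pearson correlation between each pair of factors across 12 arrays, computed on deviations from the group means. Red is positive and blue negative, and the printed value is r. Egr1, Egr2 and Nr4a1 form the tightest group (0.96 to 0.99), and Nr4a2 has the lowest values with most other factors.

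Other array measures moved with the same arrays. TCDD array 1 and Cl-BBQ array 1 had the smallest interquartile range of log2 values over genes, 2.94 and 2.88, where the other arrays had 3.02 to 3.25, and Cl-BBQ array 1 had the highest median, 7.24. Vehicle array 4, also low in the factors, had the largest interquartile range, 3.25. Over the 12 arrays the mean deviation of the factors had r = 0.514 with that of the interquartile range and r = -0.513 with that of the median (0.306 and -0.296 without Cl-BBQ arrays 1 and 4). After quantile normalization, r with the other 9 was 0.969 for Nr4a1, 0.939 for Egr1, 0.911 for Egr2 and 0.430 for Egr3.

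Marker lists of cell types were set beside the factors as well. The mean of the 9 CD4 T cell markers followed them (r = 0.868), at -0.08 and -0.15 in the arrays numbered 1 of TCDD and Cl-BBQ and 0.07 and 0.12 in those numbered 4, but at -0.00 in vehicle array 4, where all 10 factors were low. Without Cl-BBQ arrays 1 and 4 it had r = 0.689. Markers of B and plasma cells (10 measured, r = 0.150), of CD8 T cells (2 measured, r = 0.336), of NK cells (5 measured, r = 0.390), of myeloid and dendritic cells (13 measured, r = -0.345), of neutrophils (7 measured, r = -0.384) and of erythroid cells (3 measured, r = -0.369) followed less. The summed level of the B cell list was 10.00 to 10.12 with TCDD, 10.02 to 10.15 with Cl-BBQ and 10.10 to 10.39 with vehicle. For NK markers it was 8.29 to 8.62 with TCDD, 8.39 to 8.64 with Cl-BBQ and 8.70 to 8.92 with vehicle. For myeloid markers it was 10.37 to 10.46 with TCDD, 10.38 to 10.47 with Cl-BBQ and 10.35 to 10.38 with vehicle. The CD8 list summed to 9.82 to 10.08 with TCDD, 9.90 to 10.22 with Cl-BBQ and 9.93 to 10.35 with vehicle. Its gene Cd8a was at 7.03, 8.47, 7.00 and 6.96 in vehicle arrays 1 to 4. In the B cell list Cd22 (-0.95, limma adjusted p = 0.00364) and Bank1 (-0.48, limma adjusted p = 0.0392) fell with TCDD. Eomes of the NK list also fell (-0.64), and no other marker was called against vehicle. The other 8 B cell markers leaned both ways, such as Cd79b (0.23), Pax5 (0.11), Cd79a (-0.15) and Ms4a1 (-0.12). In the NK list Klrb1c (-0.43) and Ncr1 (0.07) were not called. A mean under 6 was found for 3 of 10 B cell, 3 of 5 NK and 5 of 13 myeloid markers. The part of other cell types in the levels of the factors was not tested.

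Taken as a mean, heat shock genes, some of which the stress of cell isolation induces, ran against the factors in the ligand arrays numbered 1 and 4. They did not in vehicle array 4, where their mean deviated by -0.03 and that of the factors by -0.15. Single genes of the list differed. Hspa1a was at its group mean in TCDD array 1 (7.34), and Dnajb1 was below its group mean in Cl-BBQ array 1 (10.21 against 10.27). The mean of 7 heat shock genes deviated by 0.05 in TCDD array 1 and 0.12 in Cl-BBQ array 1, and by -0.04 in TCDD array 4 and -0.11 in Cl-BBQ array 4 (r = -0.746 with the factors; -0.367 without Cl-BBQ arrays 1 and 4). None of the 7 was called in any comparison. The lowest p belonged to Dnaja1 with TCDD (0.06), to Hspe1 with Cl-BBQ (-0.07) and to Hspa8 between the ligands (0.07). The AhR target genes did not follow the factors within groups (r = -0.099). Cl-BBQ array 3, at the vehicle end of the AhR scale, had 7 of 10 factors above and 3 below its group mean.

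Lists of genes around the factors followed the same arrays. A list of 6 measured genes for factors that act on the promoters of early response genes (Srf, Elk1, Elk3 and Elk4 of the serum response complex, and Creb1 and Crem of the CREB family) had r = 0.926 with the factors, and 12 EGR partners and T cell targets had r = 0.929. Feedback genes of the MAP kinases (13 genes, r = 0.884), 25 other immediate early genes (r = 0.874), 10 AP-1 and bZIP partners (r = 0.867), 9 NR4A-linked genes (r = 0.839) and 12 calcineurin and NFAT genes (r = 0.747) came next. Of 11656 single genes with a mean of at least 7, 5.96% had r of at least 0.8 with the factors. A further 1.66% had r of at most -0.8, and the median r was 0.239. The shared variation was thus not confined to these lists. The list values are correlations of means over several genes, a different measure, so shares of single genes are no background for them. The mean of the 9 CD4 T cell markers had r = 0.868.

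The 10 genes outside the factors whose deviations were most like their mean were Itga6 (r = 0.975), an integrin chain, Cd5 (r = 0.973), an inhibitory receptor of T cells, Fasl (r = 0.965), a death ligand, Pdcl (r = 0.960), Cblb (r = 0.960), a ubiquitin ligase that restrains T cell receptor signalling, Map2k6 (r = 0.959), a MAP kinase kinase, Tnip1 (r = 0.953), an inhibitor of NF-κB signalling, Ubald1 (r = 0.953), Sh3bp5 (r = 0.949) and Camk4 (r = 0.947), a calcium-dependent kinase. Cblb and Fasl also belong to the list of EGR partners and T cell targets, and Cd5 to the CD4 T cell markers. None of the 10 was called with either ligand. Fasl, for example, averaged 8.43 ± 0.27 with TCDD, 8.55 ± 0.36 with Cl-BBQ and 8.68 ± 0.16 with vehicle. The Egr mean was followed most closely by Msn (r = 0.965), Cd5 (r = 0.959) and Itga6 (r = 0.958). For the Nr4a mean these were Abhd2 (r = 0.946), Zfp874b (r = 0.930) and Prepl (r = 0.930), and for the AP-1 mean Vezf1 (r = 0.959), Gab3 (r = 0.954) and Tob2 (r = 0.954).

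Over the 7 lists of genes around the factors, 3 of 87 measured genes (3.45%) were called with TCDD, where 1.24% of all genes were, and 1 of 87 (1.15%) with Cl-BBQ, where 0.196% were. The lists were chosen with earlier results of these data known, so these shares are not an independent comparison and show no enrichment. In the calcineurin and NFAT list 1 of 12 genes rose with TCDD and 1 of 12 with Cl-BBQ, Ppp3ca both times, and 11 were not called. Ppp3ca encodes a catalytic subunit of calcineurin, the phosphatase that activates NFAT. It was at 10.71, 10.78, 11.01 and 10.91 in TCDD arrays 1 to 4, at 10.67, 10.52, 10.72 and 10.76 in Cl-BBQ arrays 1 to 4, and at 10.34, 10.35, 10.11 and 10.06 in vehicle arrays 1 to 4. Every ligand array lay above every vehicle array. With TCDD the level of Ppp3ca was 1.56-fold that with vehicle (difference 0.64, interval 0.46 to 0.82; limma adjusted p = 0.000599) and with Cl-BBQ 1.37-fold (0.45, interval 0.27 to 0.63; limma adjusted p = 0.0398). The TCDD call held in all 20 alternatives, and the Cl-BBQ call in 9 of 20. Leaving out Cl-BBQ array 2, 3 or 4 or vehicle array 1, 3 or 4 ended it, with a limma adjusted p of 0.0883 without Cl-BBQ array 3. TCDD minus Cl-BBQ was 0.19 (interval 0.01 to 0.37; limma adjusted p = 0.9999).

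In the list of EGR partners and T cell targets, 1 of 12 genes rose with TCDD and 0 with Cl-BBQ. This was Nfil3, a bZIP repressor, at 9.23, 9.19, 9.41 and 9.41 in TCDD arrays 1 to 4, 9.19, 9.18, 9.21 and 9.0 in Cl-BBQ arrays 1 to 4, and 8.90, 8.96, 8.96 and 8.89 in vehicle arrays 1 to 4. All TCDD arrays and all Cl-BBQ arrays lay above all vehicle arrays. It was 1.30-fold higher with TCDD (limma adjusted p = 0.0145), and the call was lost in 5 of 20 alternatives, which were median centring and leaving out TCDD array 3 or 4 or vehicle array 1 or 4. With Cl-BBQ the difference was 0.22 (limma adjusted p = 0.445). The ligands' difference was 0.17 (limma adjusted p = 0.9999).

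Of 25 other immediate early genes, 1 fell with TCDD, 0 rose and 24 were not called. It was Rel, the NF-κB subunit c-Rel, at 10.80, 10.78, 10.84 and 10.85 in TCDD arrays 1 to 4, 10.78, 10.90, 10.91 and 10.90 in Cl-BBQ arrays 1 to 4, and 11.02, 11.01, 11.06 and 11.08 in vehicle arrays 1 to 4. The groups were tight, and both ligand groups lay wholly below vehicle. Rel was 1.17-fold lower with TCDD (log2 difference -0.23, interval -0.33 to -0.12; limma adjusted p = 0.0282), and the call was lost in 9 of 20 alternatives, 7 of which left out 1 array (any TCDD array, or vehicle array 1, 3 or 4). The Cl-BBQ difference was -0.17 (interval -0.28 to -0.07; limma adjusted p = 0.254), and none of the 25 was called with Cl-BBQ.

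The remaining lists had no called gene in any comparison in the main fit. Alternative fits did call Spred2, with and without a replicate block, and Tox, with the block only, both for TCDD against vehicle. Among 13 MAP kinase feedback genes the median difference was -0.08 with TCDD and -0.12 with Cl-BBQ, where all genes had 0.00 and 0.01. The gene with the lowest p was Spred2, an inhibitor of Ras signalling, at -0.42 with TCDD (interval -0.64 to -0.20; limma adjusted p = 0.0747), called in 7 of 20 alternatives, and Dusp4, a MAP kinase phosphatase, at -0.31 with Cl-BBQ (limma adjusted p = 0.418). Among 10 AP-1 and bZIP partners it was Batf, at 0.16 with TCDD and 0.19 with Cl-BBQ (limma adjusted p = 0.513 and 0.506). Among 9 NR4A-linked genes it was Tox, a nuclear factor of exhausted T cells, at -0.29 with TCDD (limma adjusted p = 0.628; 0.0327 with the replicate block), and Ikzf2 at -0.19 with Cl-BBQ (limma adjusted p = 0.709). Of the 6 serum response and CREB family genes it was Elk1 with TCDD (-0.09) and Elk4 with Cl-BBQ (-0.08).

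**Figure D5:**
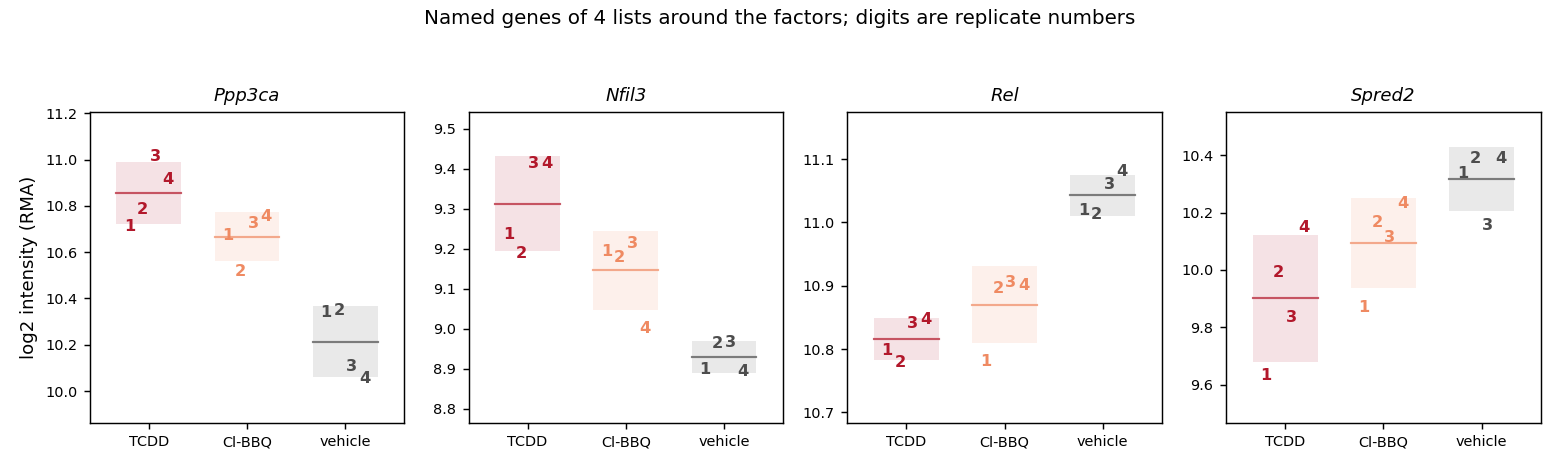
Log2 intensity of Ppp3ca, Nfil3, Rel and Spred2 on every array, with a separate scale per gene. Digits are replicate numbers, lines group means and shaded boxes ± 1 SD (n = 4). Ppp3ca is higher and Rel lower on every TCDD and Cl-BBQ array than on every vehicle array, although Rel was called with TCDD and not with Cl-BBQ.

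Between the ligands, no gene of the 7 lists around the factors was called. The lowest p values belonged to Bach2 (-0.15), Nfil3 (0.17), Rxra (0.16), Ppp3ca (0.19), Spred2 (-0.19), Crem (0.08) and Klf10 (0.13), each with a limma adjusted p of 0.9999. Their doses and schedules differed, so these values compare the treatments as given. An adjusted p that misses the threshold does not show that the ligands acted alike.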

How the data were processed

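Gene expression was measured on 12 arrays. The deposited values are log2 intensities after robust multi-array averaging (RMA), per the submitters' processing notes. The log2 scale was read from the values (2.49 to 14.2). The software version was not given in the sources used here. Of 35556 probe sets, 21789 had 1 gene symbol, 1621 several and 12146 were not listed in the platform's annotation. The probe set with the highest mean was kept for each of 19938 genes, with no filter on dim genes.

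One limma model (limma 3.58.1, R 4.3.3) covered the 3 groups, with an intensity trend and 9 residual degrees of freedom, two-sided, with Benjamini-Hochberg adjustment over all genes. The fit was tested on simulated data in which genes varied independently of each other. That test does not cover the variation shared between genes on the same array that is described above. The number of arrays limits the precision. Replicates are labelled as biological. The factors and gene lists were chosen with earlier results of these data known. List genes were named if called, and otherwise by the lowest p in the list and comparison. Some listed genes were not analysed here, and the number measured is given with each list. Likeness was ranked over genes with a mean of at least 7. Python 3.11.15 and matplotlib 3.10.9 drew the figures. Whether replicate numbers pair arrays was checked on deviations from the group means: all 4 correlations were over 0.1 for TCDD with Cl-BBQ, 2 of 4 for TCDD with vehicle, and 0 of 4 for Cl-BBQ with vehicle. Alternatives are given in the closing section.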

Additional observations from a re-analysis of the deposited data

How the results depend on the processing

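The count of early response factors called was 0 in all 3 comparisons under every one of the 20 alternatives run for each, including each array left out in turn and the replicate number as a block. The lowest limma adjusted p for a factor under any alternative was 0.0544, for Nr4a3 with TCDD in a 2-group fit with the replicate block. This fit was chosen after seeing the data. The replicate numbers are not said to pair arrays. Deviations of same-numbered TCDD and vehicle arrays correlated at -0.07, 0.14, 0.04 and 0.182 for numbers 1 to 4. Signs of uncalled differences changed in 11 of 200 values with TCDD, 23 of 200 with Cl-BBQ and 24 of 200 between the ligands. Egr3 followed the other factors at r = 0.43 after quantile normalization. Counts over the whole table moved more. TCDD against vehicle gave 247 genes, 391 with array weights, 397 with the replicate block, 480 with that block in a 2-group fit, and 150 to 227 with each array left out, lowest without TCDD array 3. Cl-BBQ against vehicle gave 39 genes, 18 without an intensity trend, 96 after quantile normalization, 13 after median centring, 11 in a 2-group fit, 111 with the replicate block, 67 with that block in a 2-group fit, 86 without both ligand arrays numbered 1, and 3 to 61 with each array left out (61 without Cl-BBQ array 1, 3 without Cl-BBQ array 2, 16 without Cl-BBQ array 4, 9 without vehicle array 1 and 4 without vehicle array 4). TCDD against Cl-BBQ gave 3 genes, 0 without an intensity trend, after quantile normalization and in a 2-group fit, 9 with array weights, 5 with the replicate block, 53 with that block in a 2-group fit, 5 without both ligand arrays numbered 1, 6 without these and vehicle array 4, and 0 to 7 with each array left out (0 without any of the TCDD arrays or Cl-BBQ array 4, 1 without Cl-BBQ array 3 and 7 without Cl-BBQ array 1); 596 genes had an unadjusted limma p under 0.05 with all arrays. The cause of these shifts was not tested. Ppp3ca with Cl-BBQ ranged from an adjusted p of 0.0249 to 0.148, Rel with TCDD from 0.00779 to 0.12, Nfil3 with TCDD from 0.0103 to 0.0836 and Spred2 with TCDD from 0.00526 to 0.251. Tox with TCDD was called only with the replicate block (adjusted p = 0.0327, and 0.00499 in a 2-group fit). With 4 arrays a group, the intervals of Nr4a1, Nr4a3, Egr1 and Egr2 were the widest of the factors.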
